A study of Drosophila melanogaster with 6 samples.

Results

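Long noncoding RNAs (lncRNAs) that were well measured in the body wall of exercised and control *Drosophila melanogaster* larvae are described here. Of 17477 genes in the count table, 1875 carried a FlyBase symbol beginning with lncRNA, and 862 of those had at least 1 count. The members are 33 genes, chosen by their counts summed over the 6 libraries, which had to reach 300 or more. The roX1, roX2 and Hsromega RNAs were left out by name. Since the members were selected on this sum, their abundance is a description and not a result.

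The exercised larvae were OK6-Gal4bc > CsChrimbc animals, in which the OK6 driver expresses the red light gated channel CsChrimson in motor neurons and light makes the body wall muscles contract. Control larvae were w1118, the strain to which both transgenic lines had been backcrossed. Both groups were of mixed sex, were in the third larval instar, had been kept overnight on food with all-trans retinal, the cofactor of the channel, and received the light program for 2 h. The contractions therefore came together with the transgenes and the channel, and exercise and genotype cannot be told apart in these groups. OK6 is also active in some neurons other than motor neurons. PolyA-selected RNA of dissected body wall (muscle on cuticle) gave 3 libraries in each group, described as independent biological replicates. How many larvae went into each library was not given in the sources used here.

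Libraries held 19625425 to 22063283 gene counts in exercised larvae and 20485254 to 23953341 in control larvae. Levels below are CPM, the counts of a gene scaled to the size of its library. The muscle genes that check the tissue were abundant and alike in both groups, with summed levels of 126000 to 138000 CPM for 7 genes in exercised larvae and 125000 to 140000 CPM in control larvae. 4 of 7 midgut markers were at 0 in every library. Fat body markers summed to 3390 to 4330 CPM in the exercised libraries, against 575, 431 and 3630 CPM in control replicates 1 to 3. Not every marker followed this sum. In control replicate 3, Lsp1alpha, Lsp1beta, apolpp and Fbp2 were within the exercised range, while Lsp2 (11.4 CPM) and Fbp1 (0.0914 CPM) were below every exercised library. Cyp6a2 went the other way, at 1.72 to 2.32 CPM in exercised larvae and 19.8 to 23.8 CPM in control larvae. roX1, an X chromosome dosage compensation RNA of males, had 56.2, 4.03 and 4.74 CPM in the exercised libraries 1 to 3, against 160.3, 157 and 79.4 CPM in the control libraries 1 to 3. It did not pass the edgeR test described below (adjusted p = 0.203). Of the 7 sex markers, Sxl (log2 fold change 0.70) and tra (0.83) passed as higher in exercised larvae. msl-2 (-1.69) and fru (-0.61) passed as lower, and 3 did not pass. The part of fat body content or sex ratio in any lncRNA difference was not tested. In such bulk samples fewer cells of a type and less RNA per cell cannot be told apart.

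lncRNAs are transcripts that do not code for a known protein. Some act as RNAs on chromatin, on other RNAs or on proteins, some are precursors from which a microRNA (miRNA) or a small nucleolar RNA (snoRNA) is cut, and for others it is the act of transcription that affects neighbouring genes. Many are made in a narrow set of cells, and most Drosophila lncRNAs still carry only an annotation number, CR followed by digits. For those, no function is given here.

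The 33 members covered every major chromosome arm, with 5 on 2L, 6 on 2R, 3 on 3L, 9 on 3R and 10 on X. Their annotated exons spanned 361 to 10400 bases, with a median of 1241, and 18 members consisted of a single block of exon sequence. The exons of 21 members overlapped those of no other annotated gene, while those of 12 did. The strand setting of the counting is not given, so reads from overlapping genes cannot be told apart. Just inside the threshold lay CR46123 with 324 counts, CR43493 with 337 and CR43496 with 338. Just outside lay CR44273 and CR43828, with 270 counts each, and CR32111 with 259.

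The lncRNAs together made up a small part of each library, and a single transcript dominated them. The 33 members took 0.136, 0.148 and 0.148% of the counts in exercised replicates 1 to 3, against 0.175, 0.183 and 0.15% in control replicates 1 to 3. CR42862 alone held 74.5 to 80.2% of the members' counts in each library. Without it the share was 0.0269 to 0.0333% in exercised larvae and 0.0383 to 0.0418% in control larvae, and these ranges did not overlap. The separation rests on CR31781, which had 2184, 1823 and 1881 counts in exercised replicates 1 to 3. In control replicates 1 to 3 it had 3307, 3234 and 3844 counts. Without CR31781 as well, the shares of the groups overlapped.

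Among the 33 lncRNAs, 6 were upregulated and 5 were downregulated in exercised larvae (edgeR, adjusted p under 0.05 over all 9127 genes tested), and 22 did not pass. The upregulated members were CR44312, CR45278, CR43650, CR45018, CR44918 and mimi, and the downregulated ones were CR46123, CR44407, CR43496, CR34335 and CR31781. These are 18.2% and 15.2% of the members. Over all tested genes the test called 10.3% higher and 8.52% lower, and over the tested genes of at least 300 counts it called 10.8% higher and 9.03% lower. With 33 members these shares rest on few genes, and the difference from the background was not tested. The calls include CR44312 and CR46123, which reached 300 counts only through the group where they were high. For both, the call is a description. CR43496 (75 counts in exercised and 263 in control libraries), CR45278 (264 and 89) and CR43650 (249 and 130) leaned on 1 group as well. With both groups at the level of the lower one, they would not have reached 300 counts. CR44407 reached 300 in the control libraries alone (555 counts, against 143 in exercised libraries). The selection thus favoured a difference in these members, which limits their calls too.

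The count of upregulated lncRNAs depended on single libraries. It was 2 when exercised replicate 3, control replicate 2 or control replicate 3 was left out, and 4 to 6 when any other library was. The count of downregulated lncRNAs stayed between 4 and 6 when any 1 library was left out. Scaled by upper-quartile factors, 4 lncRNAs were higher and 6 lower, and over all tested genes 773 were higher and 1003 lower, against 936 higher and 778 lower with TMM. The calls that held with every library left out in turn were CR44312 and CR44918 among the upregulated lncRNAs. Among the downregulated lncRNAs they were CR46123, CR43496, CR34335 and CR31781. The selection of members was not repeated in these runs, and CR44312 and CR46123 had passed it through 1 group alone. CR43496 would have missed it with both groups at its exercised level.

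The CPM ranges of the groups did not overlap for 15 members, 7 with exercised larvae above control larvae and 8 with exercised larvae below. That is 45.5% of members, against 39.2% of all tested genes. The median log2 fold change was -0.13 for the members and -0.01 for all tested genes. The median size of the change, whatever its sign, was 0.44 on the log2 scale for the members and 0.23 for all tested genes. Members and all tested genes were not matched for abundance or for spread between libraries, which also affect this size. Of the 33, 12 had a fold change above 0 and 21 below 0.

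**Figure D1:**
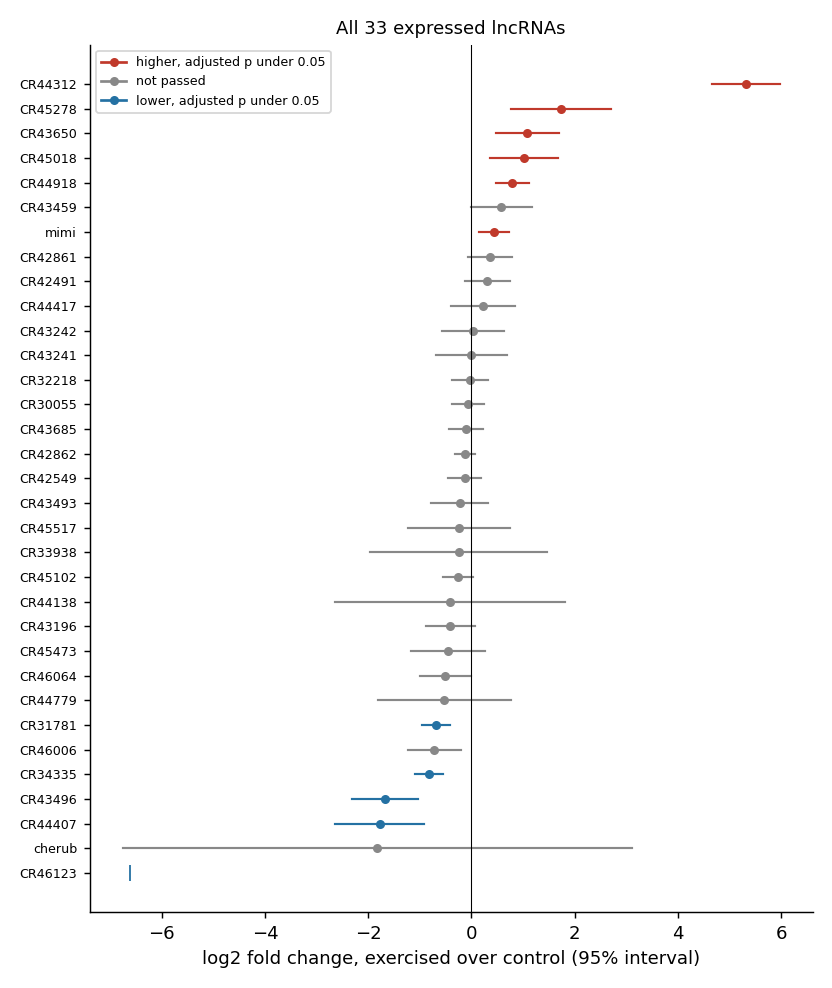
Log2 fold change of all 33 lncRNAs, exercised over control larvae, with 95% intervals from edgeR (3 libraries per group), ordered by size. Red and blue points passed the test as higher and lower and grey points did not. CR44312 stands apart at 5.32, CR46123 is drawn as a tick at its bound of -6.62 because it had 0 counts in exercised larvae, and the widest interval is that of cherub.

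2 members were nearly confined to the libraries of 1 group. CR44312 (FBgn0265371, release 6, chromosome 2R, 11929244 to 11929796, minus strand) is a single-exon RNA that lies between exp and reb, overlapping neither. Both neighbours are known for chitin deposition in the trachea. It had 6.21, 4.86 and 5.39 CPM in exercised replicates 1 to 3, against 0.164, 0.0923 and 0.137 CPM in control replicates 1 to 3. In counts this was 340 over the exercised libraries and 9 over the control libraries. Every exercised library lay far above every control library, and the log2 fold change was 5.32 (SE 0.282, edgeR adjusted p = 5.65e-05). The nearest protein-coding genes did not pass the test. reb, 16465 bases away on the same strand, had 212, 112 and 170.2 CPM in exercised replicates 1 to 3 and 84.9, 111 and 69.1 CPM in control replicates 1 to 3 (log2 fold change 0.90, adjusted p = 0.0732). exp, 9761 bases away on the other strand, had a log2 fold change of 0.34 (adjusted p = 0.069). The 4 trachea markers measured summed to 5020, 3710 and 4520 CPM in exercised replicates 1 to 3 and to 3760, 3310 and 3510 CPM in control replicates 1 to 3. These markers did not move together. serp (log2 fold change 0.57, edgeR adjusted p = 0.0139) passed as higher and verm (0.36) did not pass. trh (-0.17) and Gasp (-0.25) went the other way and did not pass. The part of the trachea in the level of CR44312 was not tested.

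CR46123 (FBgn0267798, chromosome 3R, 1366234 to 1366601, minus strand) showed the opposite picture. It had 0 counts in all exercised libraries, against 128, 102 and 94 counts in control replicates 1 to 3, which is 5.24, 4.71 and 4.29 CPM. With 3 counts over the exercised group as the floor, it was at least 98.1-fold lower in exercised larvae (edgeR adjusted p = 0.000343). The gene sits within the span of Myo81F, a myosin gene on the opposite strand, without touching its exons. Myo81F itself had 0, 0.0517 and 0 CPM in exercised replicates 1 to 3 and 0.0819, 0.0461 and 0.0914 CPM in control replicates 1 to 3, too little to be tested. CR44312 and CR46123 reached the summed count through 1 group alone, so a large difference was built into their selection. The white gene w, which is mutant in w1118 and is carried by many transgenes as a marker, was likewise at 40.9 to 114.9 CPM in exercised larvae and at 0.0457 to 0.0819 CPM in control larvae. For either lncRNA, exercise and genotype cannot be told apart.

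4 members hold the gene of a small RNA on their own strand, and 1 of them passed the test. CR43650 (2R, 16829095 to 16839494, plus strand) contains mir-8, the fly member of the miR-200 family, known for its role in body growth and at the neuromuscular junction. CR43650 had 3.63, 3.36 and 5.02 CPM in exercised replicates 1 to 3, against 2.46, 1.71 and 1.51 CPM in control replicates 1 to 3. The groups did not overlap, and the log2 fold change was 1.08 (SE 0.263, edgeR adjusted p = 0.0275). The call was lost without exercised replicate 3 (adjusted p = 0.113), control replicate 2 (0.0952) or control replicate 3 (0.0706), while the log2 fold change stayed at 0.88 or more.

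CR43459 (3R, 10093761 to 10101356, plus strand) contains mir-34 and mir-277, miRNAs studied in fly ageing and, for mir-277, in amino acid metabolism. It had 7.89, 9.77 and 12.2 CPM in exercised replicates 1 to 3, against 7.29, 4.43 and 8.22 CPM in control replicates 1 to 3. Exercised replicate 1 fell inside the control range, and the log2 fold change of 0.58 (95% interval -0.01 to 1.17) did not pass (edgeR adjusted p = 0.158). CR46006 (3L, 10323501 to 10367450, plus strand) contains mir-276a, which is known for a role in olfactory memory. It had 3.92, 4.86 and 5.02 CPM in exercised replicates 1 to 3, against 7.74, 9.55 and 5.44 CPM in control replicates 1 to 3. All exercised libraries were below all control libraries, yet the log2 fold change of -0.72 (SE 0.222) missed the threshold (edgeR adjusted p = 0.0604). It passed in DESeq2 (adjusted p = 0.043), with upper-quartile factors (0.0466), with no filter on low counts (0.0407) and without control replicate 3 (0.0205).

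CR42491 (X, 762615 to 763810, minus strand) contains snoRNA:Psi18S-531 and shares 50.5% of its exon bases with RpL22, a ribosomal protein gene on the same strand. It had 20.3, 11.8 and 17.6 CPM in exercised replicates 1 to 3, against 12.6, 13.8 and 13.6 CPM in control replicates 1 to 3. Exercised replicate 2 was the lowest of the 6 libraries and the other two exercised libraries were the highest (log2 fold change 0.31, SE 0.186, edgeR adjusted p = 0.288). Without exercised replicate 2 it passed (adjusted p = 0.0223, log2 fold change 0.51). The log2 fold change of RpL22 was -0.07 (adjusted p = 0.707), and the snoRNA had 87, 51 and 75 counts in exercised replicates 1 to 3 and 66, 64 and 83 counts in control replicates 1 to 3. A polyA-selected library counts the long precursor and not the mature miRNAs, which were not measured.

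**Figure D2:**
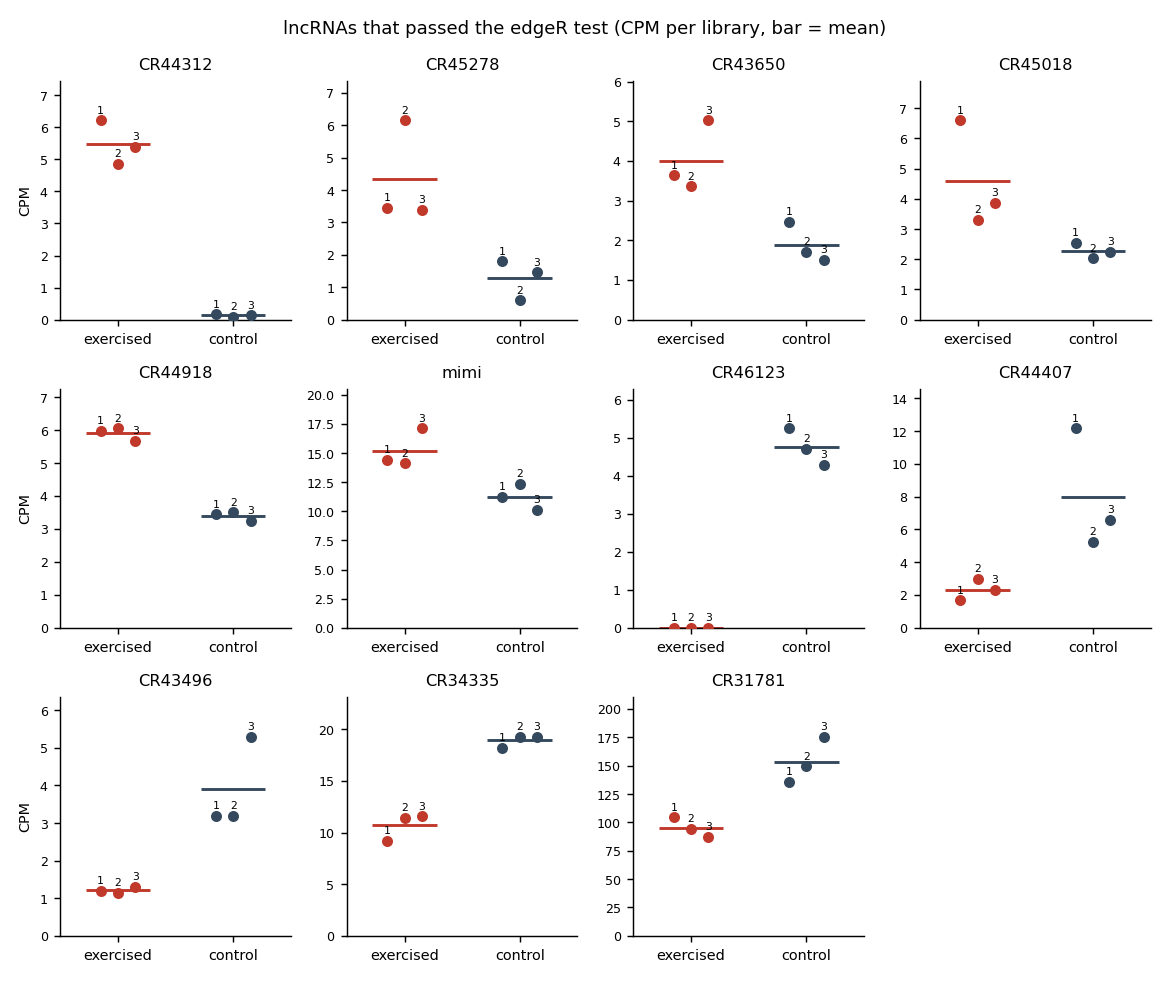
CPM of the 11 lncRNAs that passed the edgeR test, with each library as a point labelled by its replicate number and the group mean as a bar. Exercised and control larvae do not overlap in any panel, CR46123 is at 0 in all exercised libraries, and exercised replicate 1 of CR45018 and control replicate 1 of CR44407 lie apart from the other libraries of their groups.

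Of the other upregulated lncRNAs, CR44918 was the most even within the groups. CR44918 (2L, 21864946 to 21866291, minus strand) had 5.98, 6.05 and 5.67 CPM in exercised replicates 1 to 3, against 3.44, 3.51 and 3.24 CPM in control replicates 1 to 3. Its log2 fold change was 0.79 (SE 0.136, edgeR adjusted p = 0.00705), and it passed in all 14 other settings that test for any change. It lies within CR44917, another lncRNA gene, on the opposite strand, and the nearest protein-coding gene that could be tested was tsh, a homeotic zinc finger gene 27935 bases away (log2 fold change -0.06, adjusted p = 0.86).

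CR45278 (2R, 13243996 to 13245045, minus strand) lies 1625 bases from Mp20, a muscle protein gene on the opposite strand. It had 3.44, 6.15 and 3.39 CPM in exercised replicates 1 to 3, against 1.80, 0.60 and 1.46 CPM in control replicates 1 to 3. Exercised replicate 2 was the highest and control replicate 2 the lowest library, and the log2 fold change was 1.73 (SE 0.419, edgeR adjusted p = 0.0277). The adjusted p was 0.0572 and 0.0594 with exercised replicates 2 and 3 left out in turn, and 0.0515 and 0.0643 with control replicates 2 and 3 left out in turn. Mp20 was also higher, at 5057, 5680 and 5514 CPM in exercised replicates 1 to 3, against 3905, 3437 and 4317 CPM in control replicates 1 to 3 (log2 fold change 0.48, edgeR adjusted p = 0.0129).

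CR45018 (X, 13304005 to 13308004, plus strand) shares 35.8% of its exon bases with IP3K2, an inositol trisphosphate kinase gene on the same strand that was not analysed here. It had 6.60, 3.31 and 3.86 CPM in exercised replicates 1 to 3, against 2.54, 2.03 and 2.24 CPM in control replicates 1 to 3. Exercised replicate 1 was well above the other libraries (log2 fold change 1.01, SE 0.285, edgeR adjusted p = 0.0446). Without that library the log2 fold change was 0.66 (adjusted p = 0.104), and the call was also lost without exercised replicate 3 (0.0851) or control replicates 1, 2 or 3 (0.0838, 0.136 and 0.103). It did not pass in limma-voom (adjusted p = 0.0707) or with upper-quartile factors (0.0536).

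mimi (FBgn0051451, 3R, 23983503 to 23985065, plus strand) is 1 of the few members with a name of its own and had the smallest change among those that passed. It had 14.4, 14.1 and 17.1 CPM in exercised replicates 1 to 3, against 11.3, 12.4 and 10.1 CPM in control replicates 1 to 3. The ranges were separate by a small margin, and the log2 fold change was 0.44 (SE 0.124, edgeR adjusted p = 0.0462). The call was lost without exercised replicate 1 (adjusted p = 0.0669) or 3 (0.169) and without control replicate 1 (0.113), 2 (0.0672) or 3 (0.0955), and with upper-quartile factors (0.0691). CG31140, which ends 271 bases away on the same strand, was higher as well, with 44.0, 52.1 and 54.7 CPM in exercised replicates 1 to 3 and 36.4, 41.3 and 37.0 CPM in control replicates 1 to 3 (log2 fold change 0.39, edgeR adjusted p = 0.036).

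The downregulated lncRNAs included the second most abundant member. CR31781 (2L, 16869346 to 16878300, plus strand) had 104, 94.2 and 87.5 CPM in exercised replicates 1 to 3, against 135, 149 and 176 CPM in control replicates 1 to 3. All exercised libraries were below all control libraries, with means of 95.4 ± 8.53 and 153 ± 20.4 CPM in exercised and control larvae (SD, n = 3 each) and a log2 fold change of -0.69 (SE 0.117, edgeR adjusted p = 0.00684). Its exons overlap no other gene. It had at least 1823 counts in every library, so counting error is small beside the spread of the libraries.

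CR34335 (X, 3545750 to 3546110, minus strand) is the shortest member and lies within an intron of DIP-alpha, a neuronal cell surface receptor gene on the same strand. It had 9.18, 11.4 and 11.6 CPM in exercised replicates 1 to 3, against 18.2, 19.3 and 19.3 CPM in control replicates 1 to 3. The control libraries agreed closely, and the log2 fold change was -0.82 (SE 0.115, edgeR adjusted p = 0.00317). DIP-alpha had 2.20, 1.86 and 1.02 CPM in exercised replicates 1 to 3 and 0.983, 0.738 and 0.914 CPM in control replicates 1 to 3. Its ranges lay the other way round, with a log2 fold change of 0.94 that missed the threshold (adjusted p = 0.109).

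CR43496 (X, 6758610 to 6759491, minus strand) lies within sov on the opposite strand, clear of its exons. It had 1.195, 1.14 and 1.30 CPM in exercised replicates 1 to 3, against 3.19, 3.18 and 5.30 CPM in control replicates 1 to 3, and the log2 fold change was -1.68 (SE 0.272, edgeR adjusted p = 0.00569). The exercised libraries rest on 22 to 28 counts each. CG14439, a gene 2858 bases away on the opposite strand, was higher in exercised larvae. It had 173, 144 and 176 CPM in exercised replicates 1 to 3 and 47.8, 39.4 and 40.4 CPM in control replicates 1 to 3 (log2 fold change 1.95, edgeR adjusted p = 0.000105). The lncRNA and its neighbour thus differed between the groups in opposite directions.

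CR44407 (2L, 10710101 to 10710733, plus strand) had 1.67, 3.00 and 2.32 CPM in exercised replicates 1 to 3, against 12.2, 5.26 and 6.58 CPM in control replicates 1 to 3. Control replicate 1 was the highest library by a wide margin, and the log2 fold change was -1.78 (SE 0.368, edgeR adjusted p = 0.0168). Leaving that library out kept the call, whereas the adjusted p was 0.0598 without exercised replicate 1 and 0.0769 without exercised replicate 3.

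Several members that did not pass varied too much within a group for a difference to be seen. cherub (FBgn0262972, 3R, 11247631 to 11256123, minus strand) is known for its unequal inheritance when neuroblasts, the neural stem cells, divide. It had 0.0956, 0.207 and 16.3 CPM in exercised replicates 1 to 3, against 34.5, 24.5 and 0.411 CPM in control replicates 1 to 3. Exercised replicate 3 and control replicates 1 and 2 were high and the other three libraries were near 0, so each group held both states. The largest ratio between libraries of a group was 171, and the log2 fold change of -1.83 had a 95% interval of -6.76 to 3.11 (edgeR adjusted p = 0.571). Without exercised replicate 3 the log2 fold change was -7.01 (adjusted p = 0.202). The 7 neuron markers measured summed to 119, 157 and 161 CPM in exercised replicates 1 to 3 and to 132, 128 and 120 CPM in control replicates 1 to 3, with the largest part of each sum from Syx1A, a membrane fusion gene. Looking at the markers singly, after their values were seen, 3 of the 7 neuron markers (nSyb, brp and VGlut) and 1 of 5 glia markers (alrm) had their highest levels in the same 3 libraries as cherub. VGlut, the glutamate transporter gene of motor neurons, had 0.0478, 0.0517 and 2.14 CPM in exercised replicates 1 to 3, against 2.50, 1.25 and 0.0914 CPM in control replicates 1 to 3. alrm, an astrocyte gene, had 0.0956, 0.155 and 0.93 CPM in exercised replicates 1 to 3, against 1.35, 0.923 and 0.0914 CPM in control replicates 1 to 3. Both were thus near 0 where cherub was, while elav, a marker of all neurons, was at 20.1 to 22.8 CPM in exercised larvae and 22.0 to 24.9 CPM in control larvae. nSyb and brp did not fall near 0 there. In exercised replicates 1 and 2 and control replicate 3, nSyb had 4.02, 3.36 and 6.81 CPM and brp had 2.01, 2.33 and 2.28 CPM. The remaining neuron and glia markers had their highest levels in other sets of libraries. The share of all genes highest in the libraries of cherub was not counted. The part of nervous tissue left in the preparation was not tested.

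CR44138 (3R, 13376903 to 13377395, plus strand), a short RNA within CG9813 on the opposite strand, had 4.06, 52.3 and 19.4 CPM in exercised replicates 1 to 3, against 39.9, 29.7 and 30.7 CPM in control replicates 1 to 3. Its lowest and its highest library were both from exercised larvae, a ratio of 12.9 within the group (log2 fold change -0.41, 95% interval -2.64 to 1.82, edgeR adjusted p = 0.794). CG9813 had 1.82, 4.55 and 2.51 CPM in exercised replicates 1 to 3 and 2.72 to 2.99 CPM in control larvae, with exercised replicates in the same order. Exercised replicate 1 below 3 below 2 was a common order, found in 14 of the 33 members (42.4%) and in 26.3% of all tested genes.

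CR44779 (X, 1047242 to 1088866, plus strand) showed that order too, at 3.49, 16.1 and 9.11 CPM in exercised replicates 1 to 3, against 13.7, 12.4 and 15.3 CPM in control replicates 1 to 3 (log2 fold change -0.53, 95% interval -1.82 to 0.76, edgeR adjusted p = 0.539). CR45517 (X, 5428483 to 5429256, plus strand) had 2.77, 9.10 and 6.46 CPM in exercised replicates 1 to 3, against 6.51, 6.23 and 8.82 CPM in control replicates 1 to 3 (log2 fold change -0.24, 95% interval -1.22 to 0.75, edgeR adjusted p = 0.739). CG15784, 315 bases from CR45517 on the same strand, had 459, 945 and 697 CPM in exercised replicates 1 to 3 and 1116, 1144 and 2463 CPM in control replicates 1 to 3. It too was lowest in exercised replicate 1.

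The low level of exercised replicate 1 recurred among the lncRNAs, a pattern chosen after its values were seen. That library was the lowest of the 6 for 14 of the 33 members, against 22.2% of all tested genes. In 4 members, CR44138, cherub, CR44779 and CR45517, it held less than 50% of the level of every other library. This is 12.1% of members, against 0.909% of all tested genes. For cherub it rests on 2 counts in exercised replicate 1, against 4 in exercised replicate 2 and 9 in control replicate 3. Such counts are too few to tell these libraries apart. The cause was not tested.

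CR33938 (3R, 6699560 to 6700164, minus strand) lies between the larval cuticle protein genes Ccp84Ac and Ccp84Ab and varied among control larvae. It had 3.20, 4.24 and 3.67 CPM in exercised replicates 1 to 3, against 3.36, 8.81 and 1.10 CPM in control replicates 1 to 3 (log2 fold change -0.25, 95% interval -1.97 to 1.46, edgeR adjusted p = 0.843). Leaving out control replicate 2 gave a log2 fold change of 0.72 and leaving out control replicate 3 gave -0.70, so its sign was set by single control libraries.

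**Figure D3:**
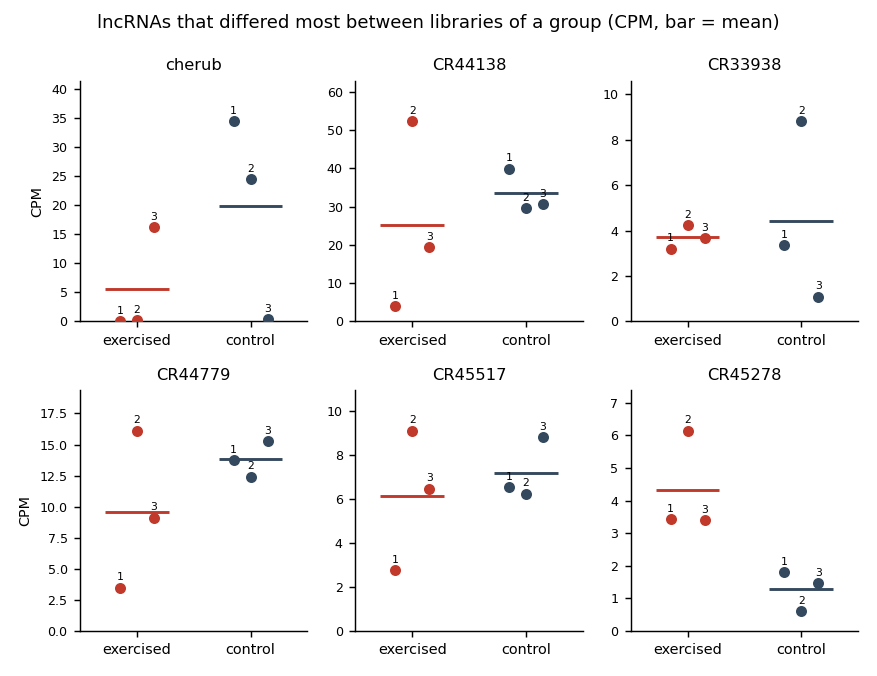
CPM of the 6 lncRNAs with the largest ratio between the highest and the lowest library of a group, with each library as a point labelled by its replicate number and the group mean as a bar. Both groups of cherub hold libraries near 0 and libraries above 16 CPM, exercised replicate 1 is the lowest library of CR44138, CR44779 and CR45517, and only CR45278 passed the test.

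The most abundant lncRNA did not pass the test. CR42862 (FBgn0262109, 3L, 224106 to 230964, plus strand) had 1103, 1167 and 1215 CPM in exercised replicates 1 to 3, against 1310, 1337 and 1146 CPM in control replicates 1 to 3. Control replicate 3 lay within the exercised range, and the log2 fold change was -0.12 with a 95% interval of -0.32 to 0.07 (edgeR adjusted p = 0.353), so a fall of more than 0.32 on the log2 scale lies outside that interval. CG42846, which lies 7 bases away on the opposite strand, was higher in exercised larvae, at 15.5, 10.5 and 13.2 CPM in exercised replicates 1 to 3, against 1.97, 2.49 and 5.16 CPM in control replicates 1 to 3 (log2 fold change 2.03, edgeR adjusted p = 0.0121).

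2 other abundant members had narrow intervals. CR45102 (X, 3701857 to 3703285, plus strand) had 17.6, 17.8 and 13.7 CPM in exercised replicates 1 to 3, against 20.2, 20.6 and 18.4 CPM in control replicates 1 to 3. Its ranges did not overlap, but the log2 fold change of -0.27 (95% interval -0.56 to 0.02) did not pass (edgeR adjusted p = 0.172). It lies between Mnt, a Myc antagonist 185 bases away on the same strand, which was lower (log2 fold change -0.34, adjusted p = 0.0156), and Rala, a small GTPase gene on the other strand, which was higher (log2 fold change 0.50, adjusted p = 0.00671). CR42549, which shares 4.9% of its exon bases with mura on the same strand, had 13.4, 13.9 and 14.6 CPM in exercised replicates 1 to 3, against 16.2, 17.3 and 12.3 CPM in control replicates 1 to 3 (log2 fold change -0.13, 95% interval -0.45 to 0.19, edgeR adjusted p = 0.574).

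Per kilobase of annotated exon, which allows levels of different genes to be compared, CR42862 led with a mean of 212 CPM per kb in exercised larvae and 231 CPM per kb in control larvae. CR44138 followed at 51.2 CPM per kb in exercised and 67.8 CPM per kb in control larvae. CR31781 had 35.6 and 57.3 CPM per kb in exercised and control larvae, and CR34335 had 29.7 and 52.4 CPM per kb. The lowest 2 members in this order, CR43650 and CR46006, are both hosts of miRNAs and have the longest annotated exons of all members (10400 and 10235 bases). Members were chosen on counts and not on counts per kb, so only long members could be so low. CR45018, the next lowest (0.857 CPM per kb over all libraries), holds no small RNA gene. CR43650 had 0.385 CPM per kb in exercised and 0.182 CPM per kb in control larvae, and CR46006 had 0.449 and 0.74 CPM per kb. For scale, Act57B, a muscle actin gene, was at 25500 CPM per kb in exercised larvae and 24600 CPM per kb in control larvae.

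**Figure D4:**
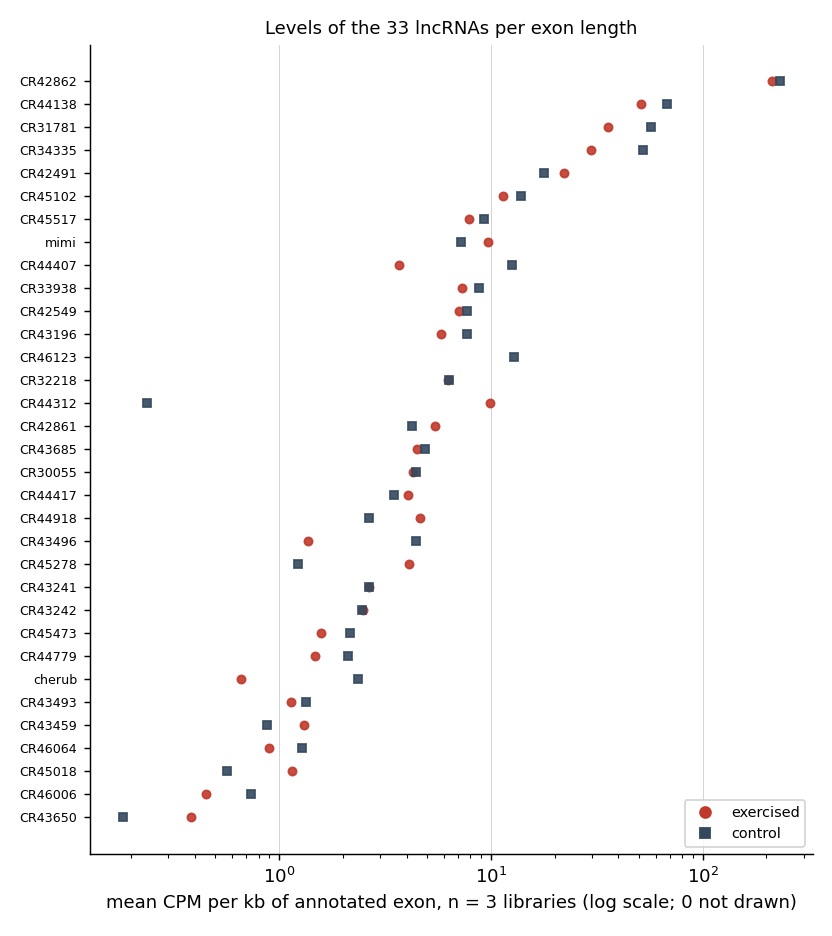
Mean CPM per kb of annotated exon (log axis) of the 33 lncRNAs in exercised (circles) and control larvae (squares), 3 libraries each, ordered by the mean of both groups. CR42862 lies above 200 CPM per kb in both groups, the exercised value of CR46123 is 0 and is not drawn, and most members differ little between the groups beside the spread of levels between members.

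The other 11 members that did not pass were of low abundance, with group means between 2.32 and 9.16 CPM. CR42861 (X, 13744928 to 13745476, plus strand) was the only one of them with separate ranges above control larvae, at 2.82, 3.15 and 2.98 CPM in exercised replicates 1 to 3, against 2.54, 2.12 and 2.28 CPM in control replicates 1 to 3 (log2 fold change 0.36, 95% interval -0.07 to 0.79, edgeR adjusted p = 0.218). Pdcd4, a translation inhibitor gene 101 bases away on the opposite strand, was lower in exercised larvae, at 87.2, 161 and 121 CPM in exercised replicates 1 to 3, against 347, 334 and 432 CPM in control replicates 1 to 3 (log2 fold change -1.59, edgeR adjusted p = 0.00603). CR46064, of which 27.7% of the exon bases overlap a pseudogene, was the only one with separate ranges below control larvae. It had 1.82, 2.69 and 2.65 CPM in exercised replicates 1 to 3, against 3.65, 3.18 and 3.33 CPM in control replicates 1 to 3 (log2 fold change -0.51, 95% interval -1.0 to -0.01, edgeR adjusted p = 0.144).

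The ranges of the remaining 9 overlapped. CR30055, within Sin3A, a corepressor gene on the opposite strand, had 8.08 to 10.2 CPM in exercised larvae and 8.81 to 9.82 CPM in control larvae (log2 fold change -0.06, 95% interval -0.37 to 0.25). CR32218, within the chromatin remodeler gene Mi-2 and within Su(Tpl), had 6.46 to 8.17 CPM in exercised larvae and 6.51 to 8.31 CPM in control larvae (log2 fold change -0.03, 95% interval -0.37 to 0.32). Mi-2 did not pass (log2 fold change -0.01), while Su(Tpl) was higher (0.34, edgeR adjusted p = 0.0443). CR43685, 3508 bases from alphaTub84B, had 5.11 to 6.07 CPM in exercised larvae and 5.53 to 6.78 CPM in control larvae (log2 fold change -0.11, 95% interval -0.44 to 0.23). alphaTub84B itself was higher (log2 fold change 0.31, edgeR adjusted p = 0.0231). None of the intervals of these 3 lncRNAs went below -0.44 or above 0.32 on the log2 scale.

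CR43196, within lute and Brf, had 2.63 to 3.83 CPM in exercised larvae and 3.52 to 4.61 CPM in control larvae (log2 fold change -0.41, 95% interval -0.89 to 0.07). CR44417, within Mapmodulin, had 2.72 to 3.93 CPM in exercised larvae and 1.94 to 3.38 CPM in control larvae (log2 fold change 0.22, 95% interval -0.40 to 0.84). CR45473, which overlaps tyn, had 1.77 to 3.00 CPM in exercised larvae and 2.42 to 4.43 CPM in control larvae (log2 fold change -0.45, 95% interval -1.17 to 0.26). Each of these intervals includes 0 and is wider than that of mimi, the smallest change that passed.

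CR43242, near Spf45, had 1.82 to 3.31 CPM in exercised larvae and 2.42 to 2.95 CPM in control larvae (log2 fold change 0.02, 95% interval -0.58 to 0.63). CR43241, within CG42748 on the same strand, had 2.20 to 3.41 CPM in exercised larvae and 1.83 to 3.48 CPM in control larvae (log2 fold change 0.00, 95% interval -0.69 to 0.69). CR43493, within l(1)G0196 on the opposite strand, had 1.77 to 2.84 CPM in exercised larvae and 2.50 to 3.15 CPM in control larvae (log2 fold change -0.23, 95% interval -0.78 to 0.32). l(1)G0196 itself, an inositol phosphate kinase gene, was higher in exercised larvae (log2 fold change 0.64, edgeR adjusted p = 0.02) while the lncRNA within it did not pass.

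By position, the calls fell on 4 of the 5 chromosome arms that held members. On 2R 3 of 6 members were higher and none was lower, beside 187 higher and 161 lower of 1834 tested genes of that arm. On 2L 1 of 5 members was higher and 2 were lower, beside 149 and 146 of 1571 tested genes. On 3R 1 of 9 members was higher and 1 was lower, beside 203 and 195 of 2237 tested genes, and on X 1 of 10 was higher and 2 were lower, beside 173 and 80 of 1464 tested genes. None of the 3 members on 3L passed, where 207 of 1760 tested genes were higher and 169 lower. With so few members on an arm, a difference from the other genes of that arm was not tested. By overlap, the 21 members whose exons touch no other gene comprised 3 of the higher and all 5 of the lower calls. The 12 members with an exon overlap comprised the other 3 higher calls, CR43650, CR45018 and mimi. CR43650 overlaps mir-8 (0.8% of its exon bases) and mimi overlaps part of mir-9381 (4.3%), each on its own strand. CR45018 overlaps a protein-coding gene, IP3K2 (35.8%).

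The protein-coding genes that overlap or lie next to the lncRNAs are set here beside all tested genes, of which 10.3% were higher and 8.52% lower. Around the 11 lncRNAs that passed, 15 such genes were tested, of which 3 were higher and 12 missed the threshold. Mp20 beside CR45278 and CG31140 beside mimi moved in the direction of the lncRNA, and CG14439 beside CR43496 moved against it. Around the other 22 lncRNAs, 8 of 49 tested neighbours were higher and 2 were lower. These counts are too small to show whether neighbours move with the lncRNAs.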

How the data were processed

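The deposited table holds raw counts of single-end reads per gene for 3 exercised and 3 control libraries. The authors used FastQC for read quality, STAR for alignment to the *Drosophila* genome (release 6) and featureCounts for the counting, and did not pool replicates. The versions, the annotation, the strand setting and the handling of multi-gene reads were not given in the sources used here.

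Symbols, positions, exon lengths and overlaps came from the Ensembl 115 annotation of release 6. Of the gene identifiers, 17200 matched and 277 did not, and these 277 (155 of them with at least 300 counts, 4.08% of all counts) could not be checked for a lncRNA symbol. No sequence is shown. IP3K2, sov and tyn were not analysed here.

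The quasi-likelihood test of edgeR 4.0.16 (R 4.3.3; glmQLFit with robust=TRUE, glmQLFTest) was run on the 9127 genes that filterByExpr kept, with TMM factors (0.975 to 1.06) and the condition alone in the model. The Benjamini-Hochberg adjusted p had to be under 0.05. CPM values are per TMM-scaled library, and intervals of log2 fold changes are at 95%. The p-values set the difference between the groups against the spread between libraries of a group. The floor for a gene at 0 was 3 counts over the group and covers counting error only.

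The members and all lists were chosen with earlier results of these data known. Named are the members that passed (up to 12 in each direction), the 8 most abundant, those holding a small RNA gene, those with at most 3 counts in a group, the 6 with the largest ratio within a group and the 3 on each side of the threshold. The remaining members were named after their values were seen, so that all 33 are accounted for, and neighbours and marker genes are named beside them. The planned count of promoter motifs was not run.

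Alternatives were DESeq2 1.42.0, limma-voom (limma 3.58.1), RLE and upper-quartile factors, no filter on low counts, a CPM of at least 1 in every library, no robust dispersion step, a replicate block, a test against a 1.5-fold change (glmTreat), each library left out in turn, summed-count thresholds of 600 and 100, and members without exon overlap. The steps were tested on simulated data. No 2 libraries of a group were duplicates.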

Additional observations from a re-analysis of the deposited data

How the results depend on the processing

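No lncRNA that passed in any setting changed direction between settings. Over the members' fold changes, 451 results kept their side of the threshold, 35 lost the call and 5 gained it. The count of upregulated lncRNAs (6 of 33) was 1 in the test against a 1.5-fold change, 1 among the 17 members of at least 600 counts, 11 among the 64 lncRNAs of at least 100 counts, 3 among the 21 members without exon overlap, and 2 to 6 with each library left out. The count of downregulated lncRNAs (5 of 33) was 2 in the test against a 1.5-fold change, 3 at 600 counts, 8 at 100 counts and 4 to 6 with each library left out. The thresholds on counts and overlap change which lncRNAs are counted, and the test against a 1.5-fold change asks for a larger effect. The cause of the losses when a library is left out was not tested. With the replicate number as a block, 2 lncRNAs were upregulated and 4 downregulated. The numbers do not pair the samples (correlation of the deviations of same-numbered libraries -0.222, 0.00292 and -0.24). Over all tested genes the main test called 936 higher and 778 lower. The calls were 773 higher and 1003 lower with upper-quartile factors, which moved the median log2 fold change of all genes to -0.07, against -0.01 with TMM. They were 251 and 128 in the test against a 1.5-fold change, 599 and 465 with the block, 469 and 358 without exercised replicate 3 and 553 and 477 without control replicate 2. A CPM of at least 1 in every library left 4 members untested. Depth limits the 9 members with under 150 counts in a group, and lncRNAs under 300 counts.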

Other observations

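Other noncoding transcripts were measured in the same libraries. Of the 9 antisense RNAs with at least 300 counts, 1 was higher and 3 were lower in exercised larvae, with a median log2 fold change of -0.45. Among all tested genes of at least 300 counts, 10.8% were higher and 9.03% lower. Of the 826 lncRNAs with at least 1 but fewer than 300 counts, leaving out roX2, 64 could be tested, of which 7 were higher and 6 were lower, with a median of 0.11. Among all tested genes 10.3% were higher and 8.52% lower. Neither set was tested against these shares. Another 1013 lncRNAs had 0 counts in every library.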
